A study of Mus musculus with 12 samples.

Results

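The genes described here encode the subunits of Polycomb repressive complexes 1 and 2 (PRC1 and PRC2), the Polycomb deubiquitinase complex and the demethylases of histone H3 lysine 27. They were taken by symbol from a fixed list of 34 genes, out of 54356 genes in the deposited transcript tables. All 34 were found in the files, and all 34 passed the filter on low counts, as did 16043 genes in all. The study measured RNA of mouse primary neural stem cells by sequencing 12 libraries. They fall into 4 groups of 3, namely wild type after 3 h of neural differentiation, wild type after 48 h, Chd5-/- after 3 h and Chd5-/- after 48 h. Chd5 encodes a chromatin remodeller of the CHD family. Cells of all 4 groups had been grown in N-2 medium with the growth factors EGF and FGF and were then moved to B-27 neurobasal medium to differentiate. The labels give neither the strain, age or sex of the mice nor the part of Chd5 that was deleted. They do not say whether the 3 libraries of a group came from separate animals or cultures, so the p-values below measure the spread between these libraries, which may be technical.

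PRC2 places methyl groups on lysine 27 of histone H3 through either of the enzymes Ezh1 and Ezh2, which work only when bound to Eed and Suz12. PRC1 attaches ubiquitin to histone H2A through Ring1 or Rnf2, each paired with 1 of the Pcgf proteins, and canonical PRC1 is brought to methylated H3 by a Cbx protein. In neural stem cells both complexes help to repress developmental regulators and the cell cycle inhibitor gene Cdkn2a. Kdm6a and Kdm6b remove the H3 mark again when such genes are switched on.

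Libraries held 14.11 to 18.71 M estimated reads. Chd5 itself read 5.25, 6.31 and 7.06 CPM (reads per M of the library size after TMM scaling) under the Chd5-/- label at 3 h, above the 3.54, 3.93 and 4.66 CPM of wild type. At 48 h it read 5.70, 3.34 and 2.96 CPM under the label and 6.59, 7.15 and 5.28 CPM in wild type, so the groups overlapped and the label was the lower on average. Neither difference passed (0.61 ± 0.31, adjusted p = 0.257, and -0.66 ± 0.31, adjusted p = 0.467), nor did the interaction (-1.28 ± 0.44, adjusted p = 0.348), which passed without the 3 libraries described next (-0.97 ± 0.34, adjusted p = 0.0379). Since the deleted part is not given, these levels may not test the label, and the samples are called "the libraries labelled Chd5-/-" throughout. Summed markers of neural stem cells (8 genes) reached 4170 to 8990 CPM in every library, most of it from Vim, Fabp7, Nes and Slc1a3. The 8 genes did not share 1 course: Prom1 measured at most 0.674 CPM, and over time Nes fell and Slc1a3 rose in both genotypes. The 6 microglial, 5 endothelial and 6 fibroblast markers each summed to at most 2.56, 9.04 and 11.8 CPM. Summed markers of astrocytes (6 genes) ranged from 453 to 847 CPM at 3 h and from 556 to 3800 CPM at 48 h. Most of this was Aldoc, with 380 to 792 CPM at 3 h and 364 to 2840 CPM at 48 h. The 6 genes did not share 1 direction between genotypes in edgeR. At 3 h Slc1a2 was higher under the label (1.62 ± 0.38, adjusted p = 0.0309). Aqp4 (-3.68 ± 0.67, adjusted p = 0.0085) and Gja1 (-2.58 ± 0.68, adjusted p = 0.046) were lower there. At 48 h Aqp4 was lower (-3.79 ± 0.63, adjusted p = 0.0098), and the other 5 were higher without passing. Neuron markers (7 genes) summed to 238 to 645 CPM in wild type and 1200 to 1310 CPM under the Chd5-/- label at 3 h, and to 544 to 837 against 720 to 1220 CPM at 48 h. The difference at 3 h was that of Map2, with 114, 476 and 490 CPM in wild type and 1090, 1180 and 1210 CPM under the label. Tubb3 went the other way at 3 h, with 119, 157 and 150 against 98.4, 93.1 and 89.9 CPM. The rest of the neuron list measured at most 7.43 CPM each at 3 h, so the sum does not show a shared change of neuronal genes. Oligodendrocyte markers (7 genes) summed to 629 to 950 CPM at 3 h and 1160 to 2060 CPM at 48 h, with replicate 2 the highest of both genotypes. The part of these other cell types in the differences below was not tested. The 3 libraries that stood apart were of 2 kinds. Wild-type replicate 1 at 3 h had summed ribosomal protein transcripts of 196000 CPM, against 27900 to 39000 CPM elsewhere, and a mean length of 1805 bases for the transcripts its reads came from, against 3040 to 3304. At 48 h, replicate 2 of each genotype held summed mitotic transcripts (20 genes) of 3390 and 3120 CPM, against 216 to 220 CPM in the other 48 h libraries and 3810 to 5500 CPM at 3 h. Averaged over genes, a chi-square between 2 libraries of a group was 1.83 to 5.53 where neither was one of these 3, which is above the counting noise of 1, and 138 to 451 where 1 of them was. Results below are therefore given with all 12 libraries. The fit without those 3 is given for the counts and for some of the genes, so a gene that did not pass with all 12 may pass there. This second fit rests on 2 libraries in every group but 1.

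**Figure D1:**
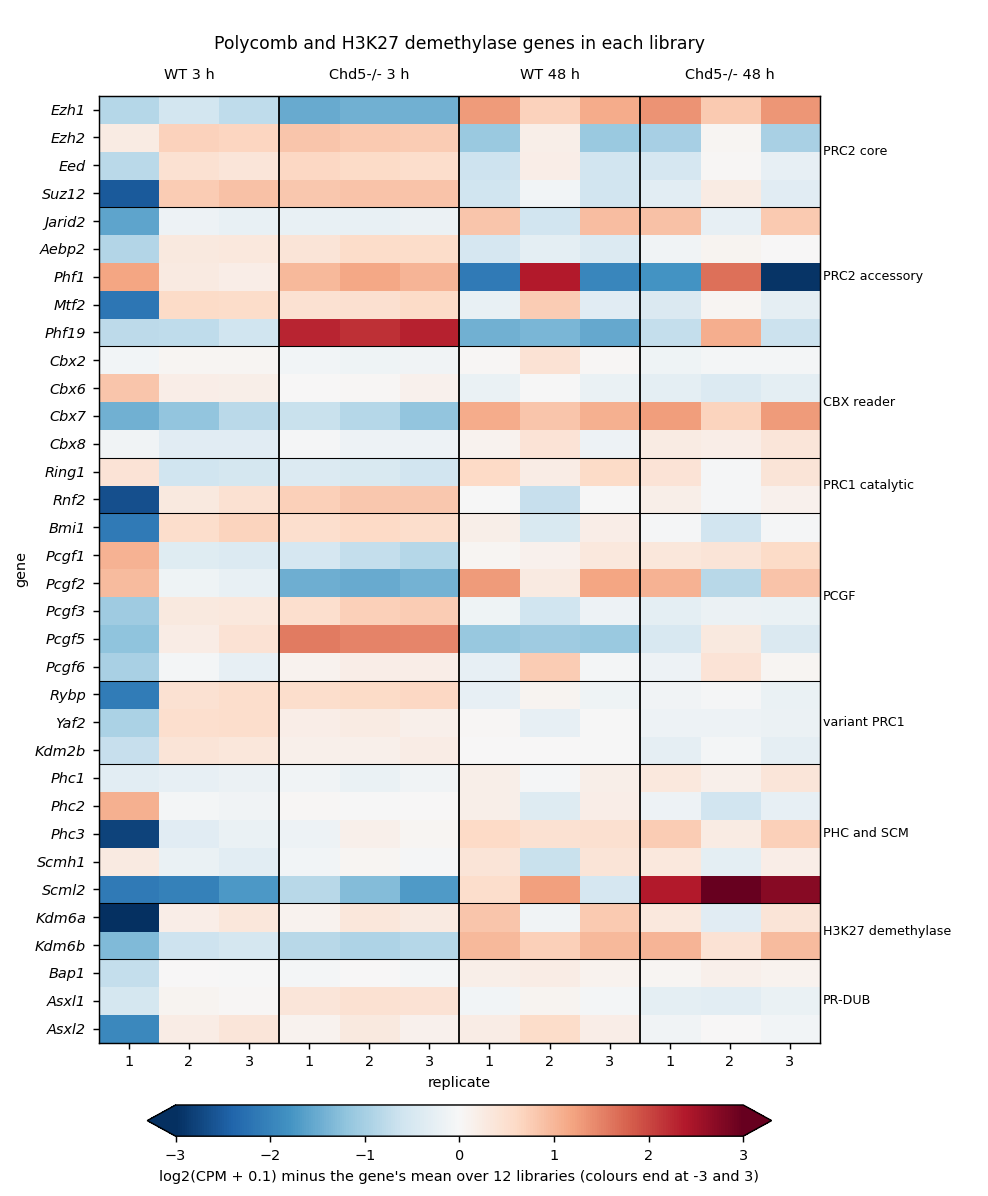
Level of each of the 34 genes (rows, grouped by role) in each of the 12 libraries (columns), as log2(CPM + 0.1) minus the gene's mean over all libraries. Phf19 and Pcgf5 are high in all 3 libraries labelled Chd5-/- at 3 h, Scml2 is highest in those labelled Chd5-/- at 48 h, and wild-type replicate 1 at 3 h is pale or dark blue for many genes.

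Few of the 34 genes passed between genotypes with all 12 libraries, and more passed between the time points. With all 12 libraries, 2 of the 34 (Phf19 and Pcgf5) were higher at 3 h under the Chd5-/- label and 0 were lower, where 6.71% of all tested genes passed at an adjusted p under 0.05 in edgeR (3.24% higher and 3.48% lower). At 48 h, 1 was higher and 0 lower (Scml2), beside 2.74% of all genes (1.53% higher and 1.21% lower). From 3 h to 48 h, 4 rose and 0 fell in wild type (Cbx7, Ezh1, Kdm6b and Scml2), beside 22.9% of all genes (12.7% higher and 10.1% lower). Under the Chd5-/- label, 5 rose (the same 4 and Pcgf2) and 4 fell (Phf19, Pcgf5, Asxl1 and Ezh2), beside 22.1% of all genes (14.1% higher and 8.03% lower). For the genotype by time interaction 0 of 34 passed in edgeR, in limma-voom and in DESeq2, 4 had an unadjusted edgeR p under 0.05, and 0.231% of all genes passed. Read against these shares, the counts lay near the background in both genotype comparisons and over time in the libraries labelled Chd5-/-. Over time in wild type the count lay below the background with all 12 libraries and above it without the 3 that stood apart, so no reading is drawn from it. The median log2 fold change of the 34 was 0.32 at 3 h between genotypes (all genes -0.02), -0.02 at 48 h (all genes -0.02), 0.13 over time in wild type (all genes 0.09) and -0.28 over time in the libraries labelled Chd5-/- (all genes 0.04).

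Without the 3 libraries that stood apart, the counts rose for these genes and for all genes together. Between genotypes, 14 were higher and 7 lower under the Chd5-/- label at 3 h, where 52.5% of all genes passed (27.2% higher and 25.3% lower). At 48 h 11 were higher and 9 lower, beside 47.2% (25.6% higher and 21.6% lower). Over time, 14 were higher and 16 lower in wild type, beside 76% (37.6% and 38.4%), and 12 were higher and 19 lower under the Chd5-/- label, beside 79% (38.9% and 40.1%). The interaction passed for 15 of the 34, against 40.4% of all genes. In CPM the groups did not overlap for 16 of 34 genes between genotypes at 3 h with all libraries (45% of all genes), for 10 at 48 h (23.2%), for 10 over time in wild type (37.7%) and for 28 over time in the libraries labelled Chd5-/- (64.6%).

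In the PRC2 core, the balance between the enzymes moved toward Ezh1 over time. Ezh1 (ENSMUSG00000006920; GRCm38 chromosome 11, 101191115 to 101226463, minus strand), the enzyme typical of non-dividing cells, measured 6.99, 8.65 and 7.44 CPM in wild type at 3 h and 30.7, 20.5 and 27.3 CPM at 48 h. In the libraries labelled Chd5-/- it measured 4.36, 4.55 and 4.61 CPM at 3 h and 32.3, 21.8 and 32 CPM at 48 h. All 48 h libraries lay above all 3 h libraries, and replicate 2 was the lowest of its group in both genotypes at 48 h. The rise was 1.76 ± 0.24 on the log2 scale in wild type (standard error; adjusted p = 0.00226) and 2.67 ± 0.25 in the libraries labelled Chd5-/- (adjusted p = 0.000168). The wild-type rise missed the threshold when only those 6 libraries were fitted (adjusted p = 0.084). The difference between these rises was 0.91 ± 0.34 (adjusted p = 0.397); without the 3 libraries it was 1.00 ± 0.14 (adjusted p = 8.14e-05). At 3 h the 3 libraries labelled Chd5-/- lay below the 3 wild-type ones, by a log2 fold change of -0.77 ± 0.24 that missed the threshold (adjusted p = 0.0867) and passed without the 3 libraries (-0.83 ± 0.11, adjusted p = 3.74e-05).

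Ezh2 (ENSMUSG00000029687; chromosome 6, 47530139 to 47595341, minus strand), the enzyme typical of dividing cells, took the opposite course. It measured 144, 194 and 190 CPM in wild type and 216, 207 and 206 CPM in the libraries labelled Chd5-/- at 3 h. The 48 h levels were 55.8, 137 and 56.1 CPM in wild type and 60.6, 125 and 61.2 CPM in the libraries labelled Chd5-/-. Replicate 2 lay far above the other 48 h libraries in both genotypes, and these are the libraries with high mitotic transcripts. Their part in the Ezh2 level was not tested, and in bulk RNA fewer cells of a type and less RNA per cell cannot be told apart. Ezh2 fell by 1.35 ± 0.40 on the log2 scale in the libraries labelled Chd5-/- (adjusted p = 0.033), and differed by -1.09 ± 0.39 in wild type (adjusted p = 0.0689). The first of these was lost without any 1 of the 3 h libraries labelled Chd5-/- and without replicate 1 or 3 of those at 48 h, with an adjusted p of up to 0.134. With the 3 libraries left out the differences were -1.83 ± 0.04 in wild type (adjusted p = 2.14e-13) and -1.82 ± 0.04 in the libraries labelled Chd5-/- (adjusted p = 7.93e-14). In wild-type replicate 1 at 3 h, a retained-intron transcript of 500 bases took 56.6% of the Ezh2 reads, against 10.4% to 13.2% in the other 11 libraries.

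Eed and Suz12, the subunits that both enzymes need, did not pass in any comparison with all 12 libraries. Eed, which binds the methylated histone tail, measured 20.9, 50.4 and 47.4 CPM in wild type and 56.5, 54.4 and 52.5 CPM in the libraries labelled Chd5-/- at 3 h, and 23.6, 42.0 and 24.4 against 25.8, 37.3 and 30.9 CPM at 48 h. Suz12 (ENSMUSG00000017548; chromosome 11, 79993106 to 80034123, plus strand), the scaffold of the complex, measured 14.9, 147 and 158 CPM in wild type at 3 h and 152, 157 and 157 CPM in the libraries labelled Chd5-/-. By 48 h the values were 57.2, 81.6 and 57.8 CPM against 69.2, 102 and 68.0 CPM. Wild-type replicate 1 was low for both genes at 3 h, and replicate 2 was the highest of its group for both at 48 h. With the 3 left out both were lower at 48 h: Eed by -1.07 ± 0.08 (adjusted p = 2.51e-08) and Suz12 by -1.45 ± 0.05 (adjusted p = 5.82e-12) in wild type. In the libraries labelled Chd5-/- the differences were -0.98 ± 0.07 for Eed (adjusted p = 1.85e-08) and -1.21 ± 0.04 for Suz12 (adjusted p = 1.1e-11).

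Promoter windows of 300 bases, from 250 before to 50 after a RefSeq start (GRCm38.p6), were given for 29 of the 34 genes (41 windows). They were searched on both strands for the octamers TTTCCCGC, TTTCGCGC, TTTGCCGC and TTTGGCGC, forms of the site bound by the cell cycle factors of the E2F family. An octamer was present in 3 of the 41 windows (7.32%), those of Ezh2, Suz12 and Phf19, and in 744 of all 32851 windows of that table (2.26%). The hexamers TTTGAA and TTCGAA, the core of the CHR element of mitotic promoters, were in 7 of the 41 (17.1%) and in 19.2% of all windows; neither hexamer is contained in an octamer. The windows of the 34 genes held a median of 23 CpG pairs and 64.3% G and C, against 7 and 52.7% over all windows. Ezh2, Suz12 and Phf19 were all lower at 48 h without the 3 libraries, but this did not set them apart. In that setting, 18 of the 34 genes in wild type had every 48 h library below every 3 h library in CPM. Under the Chd5-/- label 19 did. Eed, Kdm2b and Rnf2, with no octamer in their windows, were also lower in both genotypes. A link between the octamers and the fall was not tested. Sequences are given for the 3 windows with an octamer and for the window of Ezh1, the paralogue of Ezh2. They lie at chr6:47594981-47595280 (Ezh2, minus strand), chr11:79992856-79993155 (Suz12, plus strand), chr2:34913927-34914226 (Phf19, minus strand) and chr11:101226414-101226713 (Ezh1, minus strand). Each is written 5′ to 3′ on the strand of the gene, with the octamer in capitals.
Ezh2: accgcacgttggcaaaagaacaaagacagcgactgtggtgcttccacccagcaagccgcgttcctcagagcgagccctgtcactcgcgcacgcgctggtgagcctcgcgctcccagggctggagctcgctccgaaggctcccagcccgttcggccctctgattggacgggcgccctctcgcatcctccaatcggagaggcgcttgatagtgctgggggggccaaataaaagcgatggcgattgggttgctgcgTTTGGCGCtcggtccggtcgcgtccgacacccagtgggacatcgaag
Suz12: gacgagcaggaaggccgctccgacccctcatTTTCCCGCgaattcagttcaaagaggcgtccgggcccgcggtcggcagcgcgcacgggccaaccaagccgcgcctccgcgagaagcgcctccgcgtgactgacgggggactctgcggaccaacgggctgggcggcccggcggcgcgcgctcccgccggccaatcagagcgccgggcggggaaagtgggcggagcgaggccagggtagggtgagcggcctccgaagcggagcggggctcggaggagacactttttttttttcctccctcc
Phf19: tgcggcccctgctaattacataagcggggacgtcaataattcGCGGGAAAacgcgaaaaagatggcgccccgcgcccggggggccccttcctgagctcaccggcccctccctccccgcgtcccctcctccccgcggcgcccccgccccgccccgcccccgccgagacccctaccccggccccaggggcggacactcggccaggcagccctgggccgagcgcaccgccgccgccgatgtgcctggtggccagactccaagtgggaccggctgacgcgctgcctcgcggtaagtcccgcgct
Ezh1: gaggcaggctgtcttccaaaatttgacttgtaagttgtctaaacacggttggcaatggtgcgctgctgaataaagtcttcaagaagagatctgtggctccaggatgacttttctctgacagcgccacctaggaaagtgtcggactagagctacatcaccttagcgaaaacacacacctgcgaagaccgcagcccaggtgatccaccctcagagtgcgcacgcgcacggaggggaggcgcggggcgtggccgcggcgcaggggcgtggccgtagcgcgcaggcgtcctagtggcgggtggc
The octamer of Ezh2 began 3 bases after the start base, that of Suz12 began 219 bases before it, and that of Phf19, which reads TTTCCCGC on the other strand, began 208 bases before it. A match of letters is a description of the window and shows no binding.

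Among the accessory subunits of PRC2, Phf19 had the largest difference between genotypes of the 34 genes at 3 h. Phf19 (ENSMUSG00000026873; chromosome 2, 34893757 to 34914026, minus strand) encodes 1 of the 3 Polycomb-like proteins, which bring PRC2 to unmethylated CpG-rich DNA. It measured 7.39, 7.52 and 8.44 CPM in wild type and 63.2, 59.5 and 64.3 CPM in the libraries labelled Chd5-/- at 3 h. Levels at 48 h were 4.70, 4.92 and 4.37 CPM in wild type and 7.74, 27.4 and 8.14 CPM in the libraries labelled Chd5-/-. The genotypes did not overlap at either time, and replicate 2 was the highest of its group at 48 h in both, at 1.08 times the mean of the other wild-type libraries and 3.45 times that of the others labelled Chd5-/-. The difference at 3 h was 3.00 ± 0.45 on the log2 scale (8.0-fold, adjusted p = 0.00269), and it passed in all 22 alternatives, between 2.95 and 3.32. The 48 h difference was 1.63 ± 0.43 (adjusted p = 0.0822), and 0.82 ± 0.12 without the 3 libraries (adjusted p = 9.65e-05). Over time Phf19 fell by 2.11 ± 0.43 in the libraries labelled Chd5-/- (adjusted p = 0.00645), or by 3.01 without the 3 libraries, and differed by -0.74 ± 0.42 in wild type (adjusted p = 0.223). The interaction was -1.37 ± 0.59 (adjusted p = 0.477) with all 12 libraries, -2.25 (adjusted p = 0.00892) without replicate 2 of the 48 h libraries labelled Chd5-/- and -2.15 ± 0.15 (adjusted p = 1.77e-07) without the 3.

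Phf1, also a Polycomb-like gene (ENSMUSG00000024193; chromosome 17, 26933052 to 26937908, plus strand), varied more between replicates than between groups. It measured 15.8, 8.43 and 7.99 CPM in wild type and 13.6, 15.5 and 14.2 CPM in the libraries labelled Chd5-/- at 3 h. At 48 h it measured 1.53, 36.5 and 1.70 CPM in wild type and 1.92, 21.9 and 0.82 CPM in the libraries labelled Chd5-/-. Replicate 2 was 22.6 times the mean of the other wild-type libraries at 48 h and 16 times that of the other libraries labelled Chd5-/-. With all 12 libraries the time difference was 0.31 ± 1.25 in wild type (adjusted p = 0.877) and -0.81 ± 1.25 in the libraries labelled Chd5-/- (adjusted p = 0.68). Leaving out the 3 libraries gave -2.39 ± 0.22 (adjusted p = 3.88e-07) and -3.42 ± 0.21 (adjusted p = 3.81e-09). Phf1 starts 468 bases downstream of Kifc5b, a kinesin gene on the same strand, and overlaps Cuta on the opposite strand. Kifc5b itself measured 2.5, 67.2 and 2.22 CPM in wild type and 4.95, 48.0 and 3.22 CPM in the libraries labelled Chd5-/- at 48 h, and 17.2 to 45.9 CPM at 3 h. Whether reads of Kifc5b were counted as Phf1 was not tested.

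The other accessory genes passed in no comparison with all 12 libraries. Mtf2, the third Polycomb-like gene, measured 4.96, 34 and 33.2 CPM in wild type at 3 h, 31.2 to 33.9 CPM in the libraries labelled Chd5-/- at 3 h, and 16.7 to 38.9 CPM at 48 h. Jarid2, which helps PRC2 bind ubiquitinated H2A, measured 17.2, 45.9 and 43.8 CPM in wild type and 43.7, 43.9 and 45.4 CPM in the libraries labelled Chd5-/- at 3 h. The 48 h levels were 91.4, 34.3 and 98.0 against 95.3, 43.5 and 88.4 CPM, so replicate 2 was at the 3 h level in both genotypes while replicates 1 and 3 were above every 3 h library. Its time difference was 1.06 ± 0.47 in wild type (adjusted p = 0.119) and, without the 3 libraries, 1.03 ± 0.05 in wild type (adjusted p = 1.06e-09) and 1.01 ± 0.05 in the libraries labelled Chd5-/- (adjusted p = 3.76e-10). Aebp2, its partner in that form of PRC2, ranged from 33.9 to 92.5 CPM and was higher in all 3 libraries labelled Chd5-/- than in all wild-type libraries at both times (0.50 ± 0.28, adjusted p = 0.307 at 3 h).

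**Figure D2:**
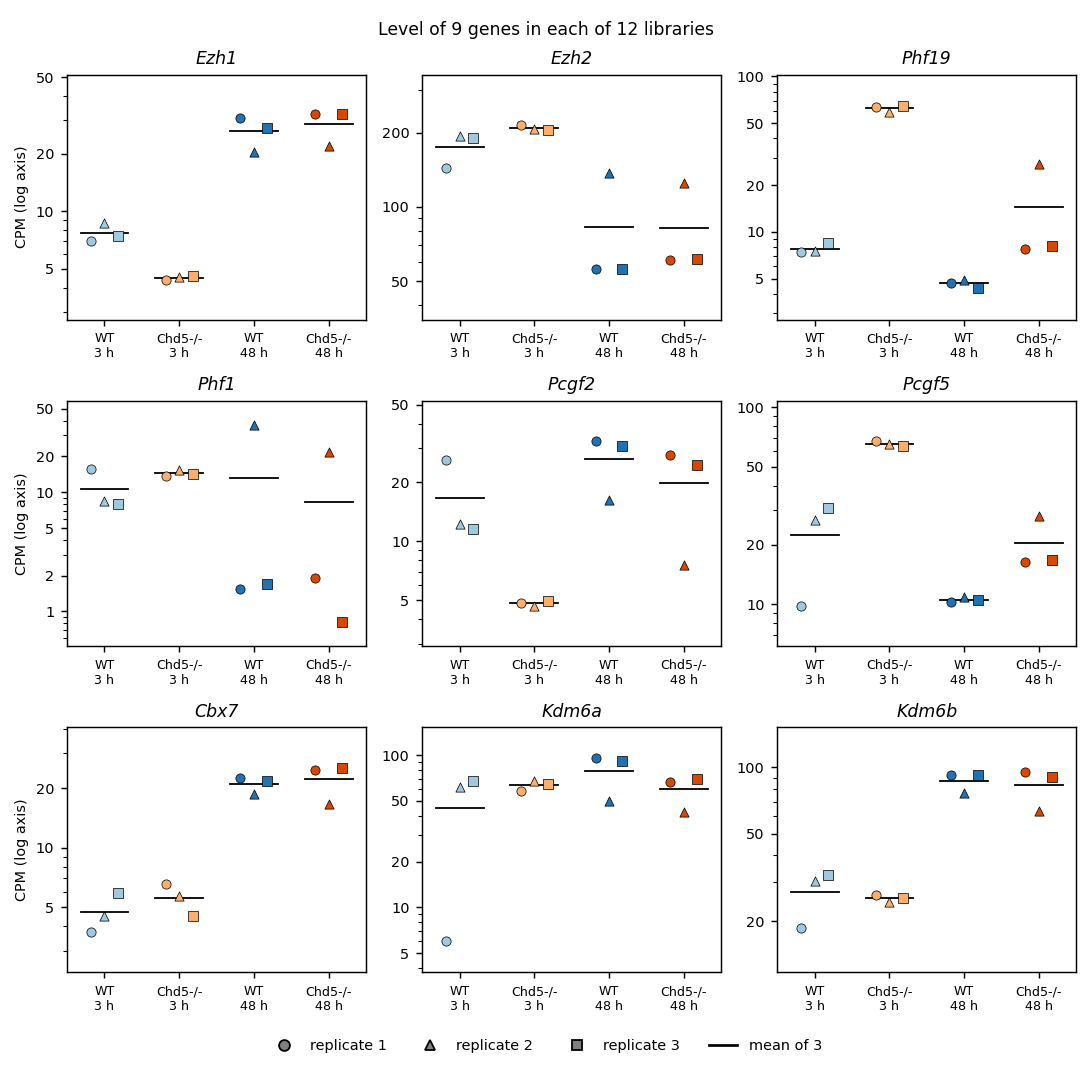
CPM on a log axis of 9 genes in each of the 12 libraries, with replicates as circles, triangles and squares and the mean of each group as a line. Ezh1, Cbx7 and Kdm6b are higher in every 48 h library than in every 3 h library, and replicate 2 (triangle) stands apart at 48 h for Ezh2, Phf1 and Pcgf2.

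Of the 4 Cbx readers listed, 1 passed with all 12 libraries. Cbx7 (ENSMUSG00000053411; chromosome 15, 79915807 to 79971119, minus strand), which binds methylated H3 in canonical PRC1, measured 3.75, 4.50 and 5.88 CPM in wild type and 6.54, 5.68 and 4.50 CPM in the libraries labelled Chd5-/- at 3 h. By 48 h the values were 22.5, 18.7 and 21.8 CPM against 24.8, 16.6 and 25.4 CPM. The time points did not overlap in either genotype and the genotypes overlapped at both times. The rise was 2.15 ± 0.28 in wild type (4.44-fold, adjusted p = 0.00181) and 2.00 ± 0.27 in the libraries labelled Chd5-/- (3.99-fold, adjusted p = 0.00115). The first of these was lost in 1 of 22 alternatives, the fit of the wild-type libraries alone (adjusted p = 0.0825). Cbx2, Cbx6 and Cbx8 passed in no comparison with all 12 libraries. Their largest time difference was that of Cbx6 in wild type, -0.57 ± 0.22 (adjusted p = 0.0805), where wild-type replicate 1 at 3 h had the highest level, 491 CPM, against 209 to 318 CPM in the other 11 libraries.

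The catalytic subunits of PRC1 did not pass with all 12 libraries. Rnf2 (also called Ring1b), the main H2A ubiquitin ligase, measured 9.01, 70.1 and 77.7 CPM in wild type and 94.2, 100 and 99.8 CPM in the libraries labelled Chd5-/- at 3 h, and 35.5 to 64.9 CPM at 48 h. Ring1, its paralogue, measured 47.8, 23.5 and 24.7 CPM against 26.9, 26.1 and 24.2 CPM at 3 h, and 54.3, 42.1 and 53.6 against 47.4, 34.8 and 47.2 CPM at 48 h. Wild-type replicate 1 at 3 h was thus the lowest of the 12 libraries for Rnf2 and above the other 5 libraries at 3 h for Ring1. Without the 3 libraries, Ring1 was higher at 48 h, by 1.11 ± 0.06 in wild type (adjusted p = 1.08e-09) and 0.84 ± 0.05 in the libraries labelled Chd5-/- (adjusted p = 6.51e-09), and Rnf2 was lower, by -0.44 ± 0.06 (adjusted p = 1.1e-05) and -0.66 ± 0.05 (adjusted p = 4.7e-08). Protein-coding transcripts held 73.7% to 87.6% of the Ring1 reads in the 3 h libraries and 26.5% to 50.5% in the 48 h libraries. The rise of Ring1 is thus that of all its transcripts summed, and a rise of the coding ones was not tested.

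The Pcgf genes, which set the form of PRC1, moved in both directions. Pcgf5 (ENSMUSG00000024805; chromosome 19, 36348309 to 36460970, plus strand), a subunit of variant PRC1, measured 9.82, 26.9 and 30.9 CPM in wild type and 67.4, 64.8 and 63.4 CPM in the libraries labelled Chd5-/- at 3 h. Levels at 48 h were 10.3, 10.9 and 10.5 CPM against 16.4, 28.0 and 16.8 CPM. The libraries labelled Chd5-/- lay above the wild-type ones at both times. The difference at 3 h was 1.53 ± 0.38 (2.89-fold, adjusted p = 0.0366), and it was lost in 10 of 22 alternatives, with an adjusted p of up to 0.12: among them without wild-type replicate 2 at 3 h, without any 1 library labelled Chd5-/- at 3 h, and without replicate 1 or 3 of either genotype at 48 h. It was 1.17 ± 0.06 (adjusted p = 2.5e-09) without the 3 libraries. The 48 h difference was 0.95 ± 0.38 (adjusted p = 0.319), and 0.69 ± 0.09 (adjusted p = 5.78e-05) without the 3. Over time Pcgf5 fell by 1.68 ± 0.38 in the libraries labelled Chd5-/- (adjusted p = 0.0111, and up to 0.056 without replicate 1 or 3 of these libraries at 48 h) and differed by -1.09 ± 0.38 in wild type (adjusted p = 0.0576).

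Pcgf2 (ENSMUSG00000018537; chromosome 11, 97688823 to 97700497, minus strand), also known as Mel18 and a subunit of canonical PRC1, had the opposite pattern. It measured 26.1, 12.3 and 11.6 CPM in wild type and 4.81, 4.67 and 4.95 CPM in the libraries labelled Chd5-/- at 3 h. At 48 h it measured 32.6, 16.3 and 30.6 CPM against 27.7, 7.54 and 24.5 CPM. At 3 h the genotypes did not overlap, and at 48 h replicate 2 was the lowest of its group in both. The difference at 3 h was -1.79 ± 0.50 (adjusted p = 0.0581). With the replicate number as a block it was -1.69 and passed, with an adjusted p of 0.0416 over all 12 libraries and of 0.0247 within each time point. It was -1.31 ± 0.10 (adjusted p = 1.52e-07) without the 3 libraries. Over time Pcgf2 rose by 2.05 ± 0.50 in the libraries labelled Chd5-/- (4.14-fold, adjusted p = 0.0155), a call lost without any 1 of the 3 h libraries so labelled and without replicate 1 or 3 of those at 48 h (adjusted p up to 0.128). In wild type the time difference was 0.67 ± 0.48 (adjusted p = 0.327), 1.36 ± 0.08 without the 3 libraries (adjusted p = 6.23e-09) and -0.29 with an offset for transcript length. The interaction was 1.38 ± 0.68 (adjusted p = 0.522), and 1.05 ± 0.13 without the 3 libraries (adjusted p = 2.48e-05).

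The other 4 Pcgf genes passed nowhere with all 12 libraries. Bmi1, the Pcgf protein of canonical PRC1 needed for self-renewal of neural stem cells, measured 22.2, 141 and 155 CPM in wild type and 139, 147 and 141 CPM in the libraries labelled Chd5-/- at 3 h, and 110, 71.3 and 112 against 95.2, 65.0 and 94.4 CPM at 48 h. Its level was low in wild-type replicate 1 at 3 h and in replicate 2 of both genotypes at 48 h. Pcgf1 ranged from 5.52 to 21.1 CPM, Pcgf3 from 28.9 to 102 CPM and Pcgf6 from 9.42 to 31.6 CPM. For Pcgf1 the time difference in the libraries labelled Chd5-/- was 1.13 ± 0.37, just short of the threshold (adjusted p = 0.0502).

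Rybp, Yaf2 and Kdm2b, which occur in variant PRC1, passed in no comparison with all 12 libraries. Rybp, which stimulates the ligase, ranged from 38.7 to 70.7 CPM in 11 libraries and was at 10.6 CPM in wild-type replicate 1 at 3 h. Yaf2, its paralogue, ranged from 32.7 to 56.7 CPM in those 11 libraries and Kdm2b, which binds unmethylated CpG, from 70.5 to 111 CPM, with 20.2 and 53.3 CPM in that library. When the 3 libraries were left out, all 3 genes were lower at 48 h in both genotypes, by between -0.39 and -0.77 on the log2 scale.

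Among the PHC and SCM genes, whose products hold PRC1 complexes together through SAM domains, Scml2 changed in 3 comparisons. Scml2 (ENSMUSG00000000037; chromosome X, 161117193 to 161258213, plus strand) was barely detected at 3 h. Wild type held 1, 2 and 3 reads there, and the libraries labelled Chd5-/- held 7, 4 and 3. The 48 h libraries held 19, 29 and 9 reads in wild type and 72, 130 and 90 in those labelled Chd5-/-. Summed over 3 libraries these are 6 reads (95% exact Poisson interval 2.2 to 13.1), 14 (7.65 to 23.5), 57 (43.2 to 73.9) and 292 (259 to 327), intervals that cover counting error only. In CPM the 48 h groups were 1.16, 1.96 and 0.511 against 4.46, 8.68 and 5.68. All 3 libraries labelled Chd5-/- lay above all wild-type ones at 48 h, by 2.37 ± 0.50 (5.19-fold, adjusted p = 0.0298). This call was lost in 9 of 22 alternatives, with an adjusted p of up to 0.129: among them without wild-type replicate 1 or 3 at 48 h, without any 1 library labelled Chd5-/- at 48 h, and without replicate 2 or 3 of those at 3 h. Over time Scml2 rose by 3.13 ± 0.61 in wild type (8.75-fold, adjusted p = 0.0074) and by 4.49 ± 0.57 in the libraries labelled Chd5-/- (adjusted p = 0.000779). Without the 3 libraries the wild-type rise was 2.45 ± 0.60 (5.47-fold, adjusted p = 0.00236). It missed the threshold with an offset for transcript length (2.28, adjusted p = 0.0829) and with the replicate number as a block within genotype (2.98, adjusted p = 0.0537).

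The PHC genes passed in no comparison with all 12 libraries. Phc3 measured 7.90, 42.8 and 47.1 CPM in wild type and 49.3, 60.2 and 56.6 CPM in the libraries labelled Chd5-/- at 3 h, and 82.4, 74.6 and 76.0 against 92.9, 64.6 and 89.3 CPM at 48 h. Every 48 h library lay above every 3 h library, and the difference was 1.25 ± 0.49 in wild type (adjusted p = 0.0862) and 0.57 ± 0.48 in the libraries labelled Chd5-/- (adjusted p = 0.432). Phc1 ranged from 56.4 to 89.8 CPM, Phc2 from 150 to 467 CPM and Scmh1 from 14.6 to 30.4 CPM. The highest Phc2 level was that of wild-type replicate 1 at 3 h.

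Of the H3K27 demethylases, Kdm6b rose over time and Kdm6a did not pass. Kdm6b (ENSMUSG00000018476; chromosome 11, 69398508 to 69413675, minus strand), also known as Jmjd3 and induced by many signals, measured 18.7, 30.5 and 32.3 CPM in wild type and 26.3, 24.4 and 25.6 CPM in the libraries labelled Chd5-/- at 3 h. The 48 h levels were 92.3, 76.5 and 92.4 CPM against 95.1, 63.4 and 90.2 CPM. Every 48 h library was above every 3 h library, while the genotypes overlapped at both times. The rise was 1.68 ± 0.25 in wild type (3.2-fold, adjusted p = 0.00301) and 1.70 ± 0.25 in the libraries labelled Chd5-/- (3.26-fold, adjusted p = 0.00154), with an interaction of 0.03 ± 0.35. The wild-type call was lost when only those libraries were fitted (adjusted p = 0.084).

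Kdm6a (ENSMUSG00000037369; chromosome X, 18162575 to 18279936, plus strand), also known as Utx and part of an H3K4 methyltransferase complex, measured 5.98, 61.9 and 67.4 CPM in wild type and 57.8, 67.8 and 64.8 CPM in the libraries labelled Chd5-/- at 3 h. By 48 h the values were 95.1, 49.8 and 92 CPM against 66.6, 42.3 and 69.7 CPM. Wild-type replicate 1 was far below the other 5 libraries at 3 h, and replicate 2 was the lowest in both genotypes at 48 h. The time difference was 0.81 ± 0.64 in wild type (adjusted p = 0.377) and -0.09 ± 0.63 in the libraries labelled Chd5-/- (adjusted p = 0.937). Without the 3 libraries it was 0.48 ± 0.07 in wild type (adjusted p = 1.86e-05) and 0.07 ± 0.06 in the libraries labelled Chd5-/- (adjusted p = 0.33), and there was an interaction of -0.41 ± 0.09 (adjusted p = 0.00284).

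The Polycomb deubiquitinase removes ubiquitin from H2A through Bap1, which an Asxl protein activates. Asxl1 (ENSMUSG00000042548; chromosome 2, 153345829 to 153404007, plus strand) measured 63.1, 96.5 and 94.1 CPM in wild type and 118, 126 and 123 CPM in the libraries labelled Chd5-/- at 3 h. Levels at 48 h were 86.6, 97.0 and 88.4 CPM against 74.9, 73.3 and 79.3 CPM. The libraries labelled Chd5-/- were thus all above wild type at 3 h and all below it at 48 h. Asxl1 fell by 0.69 ± 0.20 over time in the libraries labelled Chd5-/- (adjusted p = 0.0316). This call was lost in 10 of 22 alternatives, with an adjusted p of up to 0.14: among them without any 1 of the 6 libraries labelled Chd5-/- and without wild-type replicate 1 or 3 at 48 h. The wild-type difference over time was 0.10 ± 0.20 (adjusted p = 0.744), and the interaction was -0.79 ± 0.28 (adjusted p = 0.375), or -0.53 ± 0.06 without the 3 libraries (adjusted p = 2.05e-05). Bap1 ranged from 112 to 137 CPM in 11 libraries and was at 71.9 CPM in wild-type replicate 1 at 3 h, and Asxl2 ranged from 44.0 to 69.5 CPM with 12.3 CPM in that library.

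**Figure D3:**
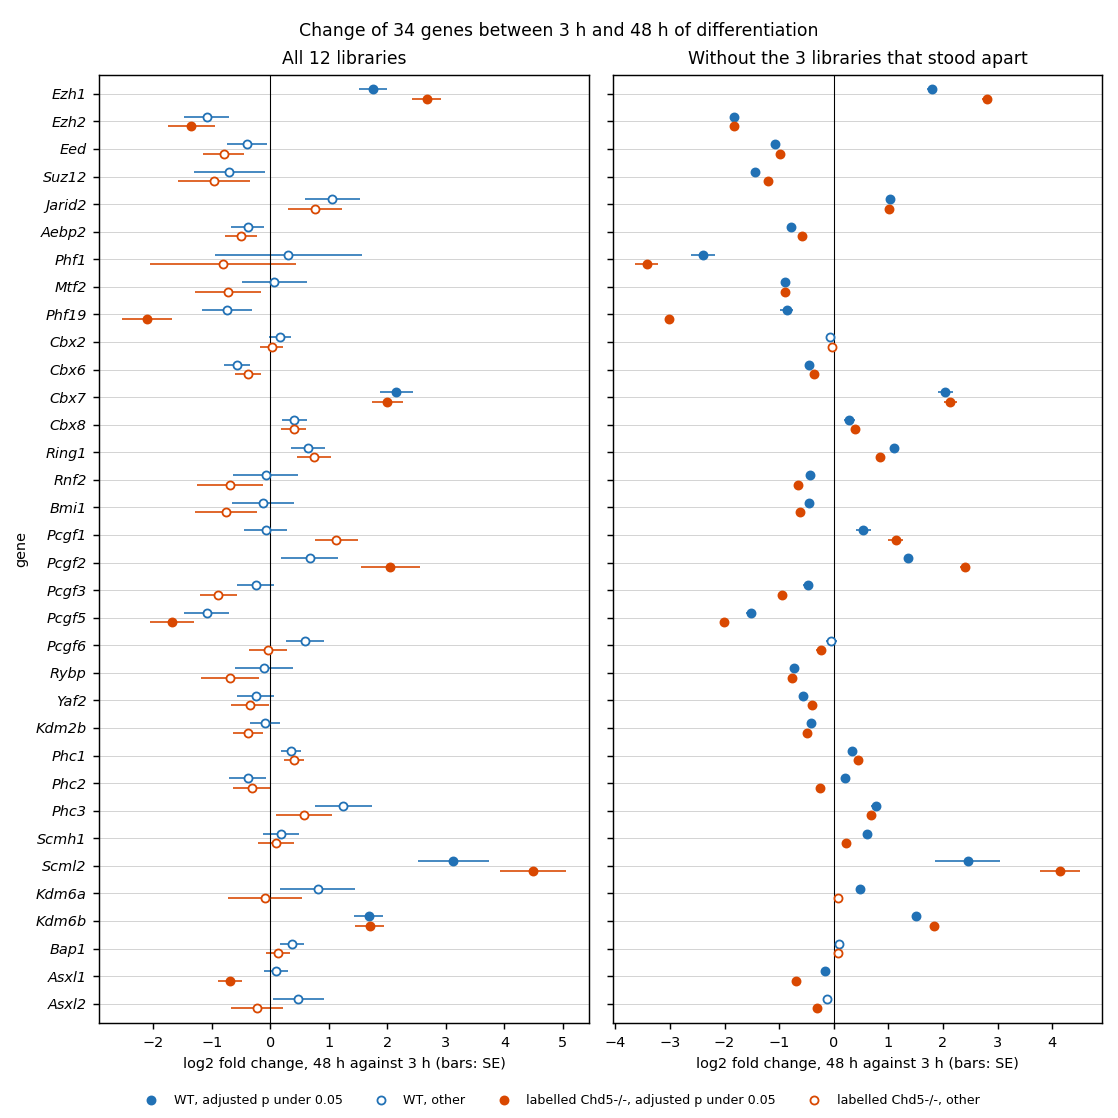
Log2 fold change from 3 h to 48 h of the 34 genes in wild type (blue) and in the libraries labelled Chd5-/- (orange), with bars for the standard error and filled points for an adjusted p under 0.05, with all 12 libraries (left) and without the 3 that stood apart (right). Cbx7, Ezh1, Kdm6b and Scml2 are filled on the right of 0 for both genotypes in both panels, and Phf1 has standard errors of 1.25 on the left and 0.22 and 0.21 on the right.

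The order of paralogues within a family was read from deposited TPM, a level per transcript length, summed over the transcripts of each gene. Of the summed TPM of Ezh1 and Ezh2, Ezh2 made up 98.3% to 99.5% at 3 h in all 6 libraries. At 48 h its share was 85% and 88.4% in wild-type replicates 1 and 3, 86.6% and 85.5% in the same replicates labelled Chd5-/-, and 95.5% and 93.7% in replicate 2 of each. Ezh2 was thus the more abundant enzyme in all 12 libraries, and less so at 48 h. Of the 3 Polycomb-like genes, Phf19 made up 61.4%, 49.6% and 57.9% of the summed TPM in the libraries labelled Chd5-/- at 3 h, against 20.3%, 7.91% and 15.7% in wild type. At 48 h its share was 33.5%, 37.7% and 35.3% against 9.18%, 6.77% and 17.2%. The leading Polycomb-like gene was Mtf2 in wild-type replicates 2 and 3 at 3 h, with 80.8% and 76.0%, and Phf19 in all 3 libraries labelled Chd5-/-.

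Among the 6 Pcgf genes, Bmi1 made up 41.6% to 59.9% of the summed TPM in 11 libraries and 5.71% in wild-type replicate 1 at 3 h. Pcgf5 made up 22.1%, 24.6% and 23.5% in the libraries labelled Chd5-/- at 3 h and 5.76%, 12.7% and 9.24% in wild type. Kdm6b made up 13.5% to 19.4% of the 2 demethylases at 3 h, apart from 74.1% in wild-type replicate 1, and 29.8% to 45.4% at 48 h. Rnf2 was the larger share of Ring1 and Rnf2 in 11 libraries, with 56.1% to 87.2%, and 11.4% in wild-type replicate 1 at 3 h. These orders depended on the unit. In reads per kb of the longest transcript, Kdm6b made up 24.3% to 30.5% at 3 h apart from 73.7% in that library, and 46.4% to 57.8% at 48 h, where it was the larger in 4 of 6 libraries. In the same unit Rnf2 took 45.4%, 40.2% and 45.5% in wild type at 48 h, below Ring1, and 51.2% to 55.9% in the libraries labelled Chd5-/-. Ezh2 was above Ezh1 in all 12 libraries in that unit too (73.3% to 98.7%). The reads of that wild-type library came from shorter transcripts, as given above, and their part in these shares was not tested.

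**Figure D4:**
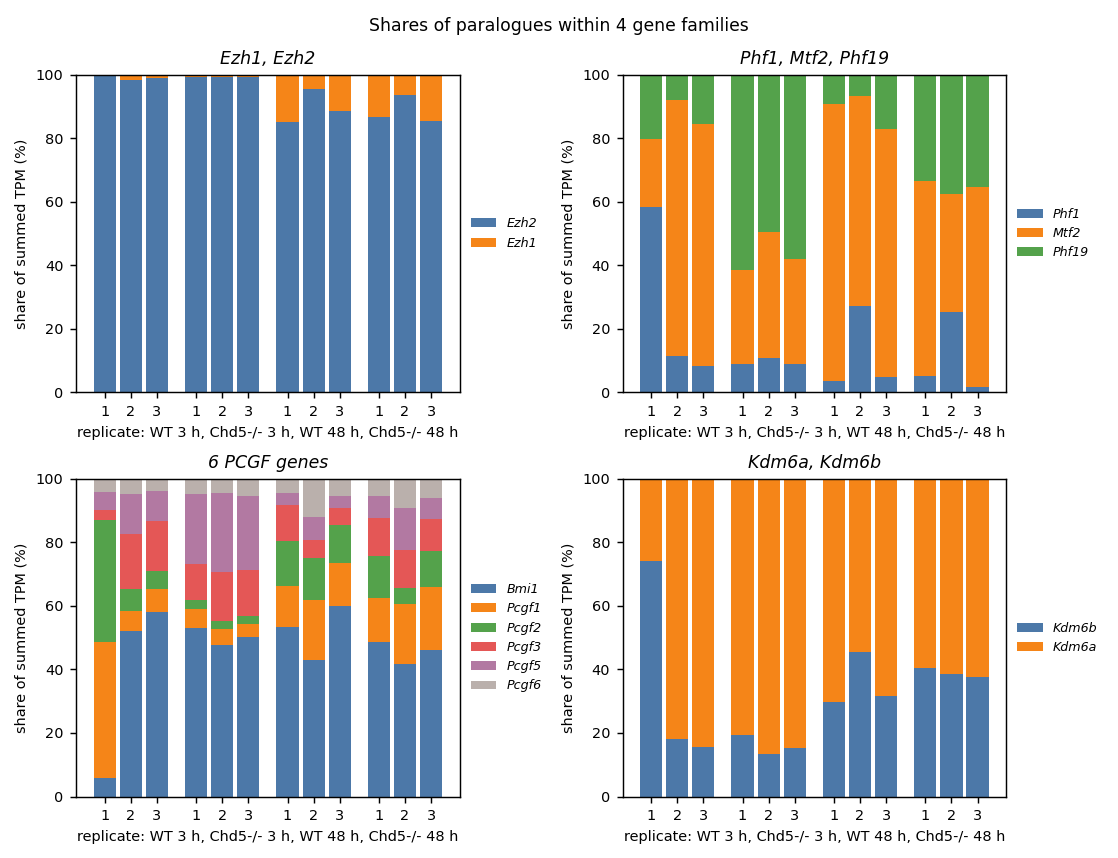
Share of the summed TPM (percent) taken by each paralogue of 4 families in each of the 12 libraries, as stacked bars. The Phf19 share is larger in the libraries labelled Chd5-/- than in wild type, the Ezh1 share is larger at 48 h than at 3 h, and wild-type replicate 1 at 3 h differs from the other libraries in 3 of the 4 families.

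Replicate 2 at 48 h lay above replicates 1 and 3 in both genotypes for 13 of the 34 genes (34% of all genes), and below both for 13 (34.9% of all genes), shares near those over all genes. This is a count of order only, and some of the differences were small, such as 1.06 and 1.05 times the mean of the others for Bap1. Those above included the 4 PRC2 subunits Ezh2, Eed, Suz12 and Aebp2, as well as Phf1, Mtf2, Phf19, Pcgf5, Pcgf6 and Scml2. Those below included Ezh1, Jarid2, Cbx7, both PRC1 ligases, Bmi1, Pcgf2 and both demethylases. The ratio of replicate 2 to the mean of the other libraries was 2.45 in wild type and 2.06 in those labelled Chd5-/- for Ezh2, 0.516 and 0.289 for Pcgf2, and 0.362 and 0.473 for Jarid2. Summed replication genes (18 genes) in these libraries reached 2300 and 2150 CPM, against 403 to 420 CPM in the other 48 h libraries and 3900 to 4050 CPM at 3 h.

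Further Polycomb and trithorax genes were read from lists written down with earlier results of these data known. Of 35 further Polycomb genes tested, 1 was higher and 1 lower under the Chd5-/- label at 3 h, and 2 were higher and 0 lower at 48 h, beside 6.71% and 2.74% of all genes in either direction. Their median log2 fold change was 0.15 and -0.09 (all genes -0.02 and -0.02). Sfmbt2, an MBT-domain Polycomb protein, was higher at both times, with 1.62, 1.39 and 1.76 CPM against 0.101, 0.512 and 0.444 CPM at 3 h and 15.6, 16.4 and 15.6 CPM against 1.28, 0.944 and 2.56 CPM at 48 h. The difference at 48 h was 3.30 ± 0.47 (adjusted p = 0.0042). At 3 h the difference was 2.07 ± 0.50 (adjusted p = 0.0319), and Scml4, an SCM gene, was lower (-1.81 ± 0.46, adjusted p = 0.0408). Asxl3, a paralogue of Asxl1, was the other gene that was higher at 48 h (3.12 ± 0.64, adjusted p = 0.0273). Over time 4 rose and 2 fell in wild type, and 4 rose and 3 fell in the libraries labelled Chd5-/-, beside 22.9% and 22.1% of all genes. Ogt, the enzyme that attaches O-linked N-acetylglucosamine and binds the deubiquitinase complex, rose by 3.42 ± 0.47 in wild type (adjusted p = 0.00222), or by 2.81 ± 0.04 without the 3 libraries. L3mbtl1, an MBT-domain gene, rose in both genotypes, by 2.47 ± 0.50 (adjusted p = 0.00862) and 4.15 ± 0.58 (adjusted p = 0.00126), and Sfmbt2 rose by 3.31 ± 0.47 in the libraries labelled Chd5-/- (adjusted p = 0.00127). Cbx3, a chromodomain protein found in a variant PRC1, fell in both, by 1.28 ± 0.17 (adjusted p = 0.00223) and by 1.18 ± 0.17 (adjusted p = 0.00147).

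The trithorax group, which counters Polycomb, had 0 of 22 genes passing in edgeR between genotypes at either time, beside 6.71% of all genes at 3 h and 2.74% at 48 h. In that test 3 of the 22 had an unadjusted p under 0.05 at 3 h and 0 at 48 h. DESeq2 and limma-voom also called 0 at both times. The median log2 fold change was 0.34 at 3 h and -0.15 at 48 h. Over time 2 rose and 1 fell of the 22 in wild type (22.9% of all genes passed), and 1 rose and 1 fell in the libraries labelled Chd5-/- (22.1%). Kdm5b, which is on that list but removes the methyl mark that trithorax enzymes place, rose in both, by 1.88 ± 0.40 (adjusted p = 0.0106) and 1.5 ± 0.40 (adjusted p = 0.0219). In wild type Nsd1 rose by 0.85 ± 0.27 (adjusted p = 0.0477), and Dpy30, a subunit of the H3K4 methyltransferase complexes, fell by 1.85 ± 0.41 (adjusted p = 0.012), or by 1.20 ± 0.06 without the 3 libraries. Nsd2 fell by 1.21 ± 0.34 in the libraries labelled Chd5-/- (adjusted p = 0.0265).

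Of 40 genes known as Polycomb targets in other cells, 20 passed the filter on low counts and 20 did not. Under the Chd5-/- label, 5 were higher and 2 lower at 3 h, and 4 were higher and 1 lower at 48 h, beside 6.71% and 2.74% of all genes, with a median log2 fold change of 0.74 and 0.06. Nkx2-2, Irx1 and Hoxd8 were at most 0.909 CPM in every wild-type library. They passed the filter only through the libraries labelled Chd5-/-, where they were high. The counts of targets are thus partly set by the filter, and no excess over all genes is read from them. Cdkn2a, the cell cycle inhibitor gene, measured 618, 139 and 141 CPM in wild type and 37.8, 32.9 and 32.7 CPM in the libraries labelled Chd5-/- at 3 h, a difference of -3.12 ± 0.59 (adjusted p = 0.0108), or -2.02 ± 0.05 without the 3 libraries (adjusted p = 3.77e-12). Wild-type replicate 1 was the highest, and the other 2 wild-type libraries were also above all 3 labelled Chd5-/-. Nkx2-2, a transcription factor gene of the ventral neural tube, had 0 reads in all 3 wild-type libraries at 3 h and 31.7, 31.1 and 35.5 CPM in those labelled Chd5-/-. Hoxa5 measured 13.1, 12.4 and 11.3 CPM against 32.2, 32.1 and 32.2 CPM at 3 h (1.39 ± 0.21, adjusted p = 0.00271). Irx1, a homeobox gene, was also higher under the label, with 7.10, 5.68 and 6.77 CPM against 0, 0.0569 and 0.166 CPM at 3 h (adjusted p = 0.000549) and 22.4, 11.8 and 22.4 against 0.55, 0.202 and 0.909 CPM at 48 h (adjusted p = 0.00125). At 48 h Nkx2-2 measured 11.8, 13.5 and 9.02 CPM against 0.366, 0.337 and 0.284 CPM (adjusted p = 9.23e-05), and Hoxd8 1.05, 1.27 and 1.14 CPM against 0, 0 and 0.0568 CPM (adjusted p = 0.0121). Over time 4 targets rose and 1 fell in wild type and 5 rose and 4 fell in the libraries labelled Chd5-/-, beside 22.9% and 22.1% of all genes. In wild type Nkx2-2 and Irx1 rose (adjusted p = 0.00212 and 0.0285) and Cdkn2a fell by 2.33 ± 0.57 (adjusted p = 0.0184). In the libraries labelled Chd5-/- Nkx2-2 fell by 1.52 ± 0.25 (adjusted p = 0.004), and Hoxd8 rose (adjusted p = 0.00426). Nkx2-2 was the 1 target of the 20 whose interaction passed (adjusted p = 0.00476).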

How the data were processed

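Per the labels' protocols, Trizol was used for RNA extraction and a stranded TruSeq mRNA kit for library preparation. Transcripts were quantified with Salmon, per the submitters' processing notes; its version is not given in the sources used here. Per the file headers, the deposited tables give estimated counts (NumReads) and TPM for 140658 transcripts, of which 140137 matched GENCODE M21 (GRCm38). The 521 others held 0.135% to 0.181% of a library's reads and were left out.

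Estimated counts were summed per gene and rounded, filtered with filterByExpr (minimum count 10, minimum total 15), scaled by TMM and fitted with 1 mean per group over all 12 libraries in edgeR 4.0.16 (R 4.3.3). Each of 5 contrasts had a quasi-likelihood F test (two-sided), adjusted by Benjamini-Hochberg over 16043 genes, with a threshold of 0.05. The procedure was also run on simulated data with a smaller spread than that of the real fit, so that run does not show its power or its false calls here. Fold changes are log2 with their standard error, CPM is per M of TMM-scaled reads, and TPM served only to compare genes. The depth of each library is given with the results. Reads of the 34 genes that overlap a gene on the other strand could not be set apart, since the strand setting of the counting is not given in the sources used here.

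The alternatives were RLE size factors, no filter, 1 CPM in 3 libraries, an offset for transcript length, limma-voom in limma 3.58.1, DESeq2 1.42.0, only the groups compared, replicate blocks, each library left out in turn, and the 3 libraries that stood apart left out together. Deviations of same-numbered libraries correlated across genes at 0.13 to 0.26 between genotypes at 3 h and at 0.70 to 0.79 at 48 h. These met a rule of every correlation over 0.1 for pairing the genotypes. The numbers were used as a block only in the alternatives, and the main fit paired no libraries. No label says what they share, and libraries with other numbers correlated as highly (replicates 1 and 3 at 0.71 and 0.72 at 48 h, 2 and 3 at 0.14 and 0.13 at 3 h), so the correlations do not single out the numbers. Between time points same-numbered libraries did not correlate (-0.02 to 0.02). Full statistics were given for genes of the 34 that passed, or that passed without the 3 libraries with a log2 fold change of at least 1 in size. Genes of other lists were named where they passed, at most 3 per list and comparison by smallest p, and Cdkn2a by name; 1 gene that this rule would name is not reported here. The genes, the lists and the omission of the 3 libraries were chosen with earlier results of these data known. Promoter sequences are from RefSeq.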

Additional observations from a re-analysis of the deposited data

How the results depend on the processing

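How many of the 34 genes passed depended on single libraries more than on the scaling or the filter. Between genotypes at 3 h (2 with all libraries), 5 passed with DESeq2, 1 with the length offset, 1 with only the groups compared and 21 without the 3 libraries that stood apart. With 1 library left out the count ran from 1 to 4, the 4 coming without wild-type replicate 2 at 48 h. At 48 h (1), 2 passed with DESeq2, 0 with the length offset or with only the groups compared, 20 without the 3 libraries and 0 to 3 with 1 left out, the 3 coming without wild-type replicate 1 at 3 h. Over time in wild type (4), 8 passed with DESeq2, 0 with only the groups compared, 30 without the 3 libraries and 4 to 17 with 1 left out. In the libraries labelled Chd5-/- (9), 25 passed with only the groups compared, 31 without the 3 libraries and 5 to 23 with 1 left out. The 17 and the 23 came without wild-type replicate 1 at 3 h, and the 5 without replicate 1 or 3 labelled Chd5-/- at 48 h. For the interaction (0), 15 passed without the 3 libraries and 0 to 1 with 1 left out, the 1 being Phf19. Apart from the numbers of libraries and genes that each alternative sets, the cause was not tested. DESeq2 gave no adjusted p for 1 of the 34 genes in each comparison.

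With the replicate block over all libraries, 3 passed between genotypes at 3 h, 1 at 48 h, 5 over time in wild type, 9 in the libraries labelled Chd5-/- and 0 for the interaction; with the block nested within time or genotype these were 3, 1, 3 and 8. Between genotypes the block changed the call of Pcgf2 at 3 h and no other among the genes named. Over time, where same-numbered libraries did not correlate, the block over all libraries gave an adjusted p of 0.0316 for Ezh2 in wild type. The nested block gave 0.0537 for Scml2 in wild type and 0.0991 for Asxl1 in the libraries labelled Chd5-/-. The direction turned for Pcgf2 over time in wild type with the length offset (-0.29). For Phf1 in wild type (0.31) it turned with limma-voom (-1.15), with the block over all libraries (-1.3), with the nested block (-1.35), without wild-type replicate 2 at 48 h (-2.71) and without the 3 libraries (-2.39); other single libraries left out gave up to 0.84. For its interaction (-1.12) it turned without wild-type replicate 2 at 48 h (1.9), and the value was -3.71 without replicate 2 labelled Chd5-/- at 48 h. Depth limits Scml2, which rests on 6 reads in the 3 wild-type libraries at 3 h.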

Other observations

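Ranked by TPM, a level per transcript length, the 34 genes spanned a wide range within the same libraries. Ezh2 had the highest median over the 12 libraries (106 TPM), followed by Bmi1 (65.1 TPM), Eed (57.9 TPM) and Phc2 (56.0 TPM). These medians pool groups that differ: in wild-type replicates 1 and 3 at 48 h, Phc2 (85.1 and 85.6 TPM) and Bmi1 (76.9 and 82.1 TPM) lay above Ezh2 (51.9 and 51.5 TPM). The lowest medians were those of Scml2 (0.214 TPM), Phf1 (1.79 TPM), Cbx7 (2.13 TPM), Ezh1 (3.71 TPM) and Phf19 (3.76 TPM), although Phf19 reached 17.3 to 22.2 TPM in the libraries labelled Chd5-/- at 3 h. All 4 genes that rose over time in both genotypes (Cbx7, Ezh1, Kdm6b and Scml2) had a median of at most 5.05 TPM. Bmi1 and Eed had 1.46 and 6.38 TPM in wild-type replicate 1 at 3 h, against at least 39.1 and 38.7 TPM in the other libraries.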
